A study of Homo sapiens with 18 samples.

Results

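The EGR transcription factors and a set of feedback genes of the mitogen-activated protein kinase (MAPK) pathway were followed in human liver cancer cells after knockdown of ATAD2, a chromatin-associated ATPase with a bromodomain. The 10 genes were EGR1, EGR2, EGR3, DUSP1, DUSP4, DUSP5, DUSP6, SPRY2, SPRY4 and IER2. A probe set, a group of short array probes read as 1 value, was taken when the array annotation assigned it to 1 of these genes and to no other gene. This gave 17 of the 54675 probe sets on the array, for 9 of the 10 genes. EGR1, DUSP1, DUSP4 and DUSP6 had 3 probe sets each, and EGR3, DUSP5, SPRY2, SPRY4 and IER2 had 1 each. No probe set was assigned to EGR2, which was therefore not analysed here, and 0 probe sets were shared with a further gene.

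The study used 3 cell lines of hepatocellular carcinoma, Hep3B, SNU449 and PLC/PRF/5 (PLC below), grown in RPMI medium. Each line was transfected by a lipid reagent with an siRNA against ATAD2 or with a control siRNA, and each of the 6 groups had 3 arrays, 18 in all, which the labels call biological replicates. The labels call the treated samples knockouts, whereas the design describes siRNA, so they are treated here as knockdowns. Neither the time between transfection and harvest nor the siRNA sequences nor the serum conditions are stated by the labels.

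EGR1 and EGR3 are zinc finger transcription factors of the immediate-early class, whose genes are switched on within minutes of a growth signal through the ERK branch of the MAPK pathway, largely by the serum response factor SRF and its ETS partners. IER2 is a nuclear protein of the same class. The dual-specificity phosphatases remove phosphate from MAP kinases and the Sprouty proteins act upstream on receptor signalling, so that both groups are induced by the pathway and dampen it.

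Marker genes did not go with the usual description of these lines. The arrays labelled SNU449 had mean log2 signals of 11.8 for 7 hepatocyte markers such as ALB, and 4.27 to 4.75 for RB1. The arrays labelled Hep3B had 4.83 to 4.98 for the hepatocyte markers, 9.15 to 9.51 for RB1 and 11.1 to 11.2 for 5 mesenchymal markers, against 5.58 to 5.68 for these on the arrays labelled SNU449. Hep3B is known as a hepatocyte-like line without RB1, and the names used below are the labels of the arrays only. The arrays labelled PLC lay between, at 8.44 to 8.98 for hepatocyte and 7.21 to 7.39 for mesenchymal markers. Leukocyte markers (4.13 to 5.08) and endothelial markers (4.67 to 5.07) were low throughout. After ATAD2 siRNA 5 of the 7 hepatocyte markers were lower in PLC (limma adjusted p below 0.05), against 0 in Hep3B and 0 in SNU449. Of all probe sets, 1.78% were lower in PLC, 3.79% in Hep3B and 0.0238% in SNU449. In Hep3B 1 of the 5 mesenchymal markers (SPARC) and 1 of the 3 leukocyte markers (CD14) were higher, where 5.08% of all probe sets were. The part of these shifts in the results was not tested.

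ATAD2 itself fell in each line by the probe set with the highest mean signal, by 3.80 on the log2 scale in Hep3B, 2.39 in SNU449 and 2.62 in PLC (SE 0.16 each, limma adjusted p = 2.73e-10, 1.35e-06 and 5.01e-07). Its 4 probe sets were lower on every ATAD2 siRNA array than on any control array of the same line.

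A few arrays stood apart. The difference between 5′ and 3′ probe signals of the β-actin and GAPDH control transcripts, which drops when RNA is degraded or copied incompletely, was -1.15 and -1.09 log2 units on PLC ATAD2 siRNA replicates 1 and 3, against -0.59 to -0.44 on the PLC control arrays. On Hep3B ATAD2 siRNA replicate 2 it was -0.42, against -0.79 and -0.71 on the other replicates of that group and -0.78 to -0.65 on the Hep3B controls. This Hep3B array was also the lowest of the 6 Hep3B arrays for 12 of the 17 probe sets (70.6%), compared with 22.7% of all probe sets. It had the lowest ATAD2 signal of its group by every ATAD2 probe set. By the one with the highest mean signal it read 4.70, against 5.15 and 5.65 on replicates 1 and 3. The part of RNA quality or of the ATAD2 level in its low values was not tested. Values without this array are given where it moved a member's call or size.

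In the cells labelled Hep3B, EGR1, DUSP1 and IER2 fell after ATAD2 siRNA, and none of the 9 measured genes rose. By probe set, 6 of 17 were lower (35.3%), comprising all 3 for EGR1, 2 of 3 for DUSP1 and the 1 for IER2, at an adjusted p below 0.05 over the 54613 probe sets tested. Of all probe sets, 3.79% were lower and 5.08% were higher in this line. In SNU449 0 of the 17 passed in either direction, where 0.0238% of all probe sets were lower and 0.0201% higher. In PLC 0 of the 17 passed, where 1.78% of all probe sets were lower and 1.55% higher. At an unadjusted p below 0.05 the number was 1 in SNU449 and 4 in PLC. No share of all probe sets was taken at that threshold, so these 2 counts cannot be read as an excess. All were tests by limma. The median log2 change over the 17 was -0.20 in Hep3B, -0.02 in SNU449 and 0.06 in PLC, compared with -0.01, -0.00 and 0.00 over all probe sets. Arrays report RNA from a whole culture, so fewer expressing cells and less RNA per cell cannot be told apart.

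The promoters of the 3 genes that fell in Hep3B are shown first, with that of DUSP6, which is induced by the same pathway and did not pass the test. They are the 250 bases before the annotated start of transcription, from RefSeq on the GRCh38.p14 assembly, 5′ to 3′ on the strand of the gene. Capitals mark the CArG box, the element bound by SRF, and TGACG on either strand (CGTCA on the other), the core of the cyclic AMP response element TGACGTCA. The windows are EGR1 at chr5:138465229-138465478 on the plus strand, DUSP1 at chr5:172771196-172771445 on the minus strand, IER2 at chr19:13150161-13150410 on the plus strand and DUSP6 at chr12:89352502-89352751 on the minus strand.
EGR1: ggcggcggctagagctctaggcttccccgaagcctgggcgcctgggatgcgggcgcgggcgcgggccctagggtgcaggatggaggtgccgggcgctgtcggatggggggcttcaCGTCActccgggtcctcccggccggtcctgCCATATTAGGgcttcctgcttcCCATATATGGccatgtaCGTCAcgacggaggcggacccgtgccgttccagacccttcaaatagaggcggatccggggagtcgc
DUSP1: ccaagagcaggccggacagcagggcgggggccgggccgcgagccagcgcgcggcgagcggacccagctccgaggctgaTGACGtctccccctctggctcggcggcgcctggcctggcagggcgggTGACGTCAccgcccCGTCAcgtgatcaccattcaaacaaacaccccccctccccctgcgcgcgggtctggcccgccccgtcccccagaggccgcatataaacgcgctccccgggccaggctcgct
IER2: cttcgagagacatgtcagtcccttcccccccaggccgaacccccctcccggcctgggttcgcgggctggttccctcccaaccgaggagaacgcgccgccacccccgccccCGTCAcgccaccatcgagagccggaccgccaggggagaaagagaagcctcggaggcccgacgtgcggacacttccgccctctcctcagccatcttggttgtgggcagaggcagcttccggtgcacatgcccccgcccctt
DUSP6: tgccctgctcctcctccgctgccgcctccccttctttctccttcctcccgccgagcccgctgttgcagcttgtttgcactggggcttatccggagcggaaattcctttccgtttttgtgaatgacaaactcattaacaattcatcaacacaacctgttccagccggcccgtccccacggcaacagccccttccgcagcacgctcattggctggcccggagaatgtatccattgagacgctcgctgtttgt

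The EGR1 window held 2 CArG boxes, CCATATTAGG from -105 to -96 and CCATATATGG from -83 to -74, counting back from -1 at the base before the start. A CArG box was present in 1.16% of 35116 promoter windows of the same length. The DUSP1 window held TGACGTCA from -125 to -118, found in 1.65% of windows, and 4 TGACG sites, of which 2 lie inside it. IER2 held 1 TGACG site and CCGGAA (read as TTCCGG on this strand), the only form of an ETS site that was searched. CCGGAA stood in 14.5% of windows, and TGACG sites stood in 21.2%. The TATA motif TATAAA was also searched and stood in the DUSP1 window from -30 to -25, as in 10.7% of windows. The DUSP6 window held none of the strings searched. Shorter or other forms of ETS sites were not searched, so their absence from the EGR1 or DUSP6 window is not shown. The TGACG site was in all 3 promoters of genes that fell, and also in that of SPRY4, which did not pass. SPRY2, which did not pass, and EGR2, which was not measured, had several windows each, not all of which held the site. An EGR2 window also held a CArG box, CCATATATGG from -71 to -62. CCGGAA also stood in a SPRY2 window, from -142 to -137. These are matches of letters, and binding at them was not measured.

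EGR1 activates genes of growth, repair and inflammation, and its RNA is short-lived. The probe set with the highest mean signal (201694_s_at) read 10.73, 8.95 and 10.57 on the Hep3B ATAD2 siRNA arrays, against 11.49, 11.50 and 11.68 on the Hep3B controls. All treated arrays lay below all controls, and replicate 2 lay far below its fellows. The means were 10.08 ± 0.98 after ATAD2 siRNA and 11.56 ± 0.10 in controls (SD, n = 3 each). The log2 change was -1.48 ± 0.29 (SE), a 2.78-fold fall, with an adjusted p of 0.0031.

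A second EGR1 probe set (201693_s_at) read 8.69, 6.82 and 8.55 on the Hep3B ATAD2 siRNA arrays, against 10.01, 9.78 and 9.99 on the controls. This was the change farthest from 0 among the 17 probe sets, at -1.91 ± 0.32 or 3.75-fold (adjusted p = 0.000767), again without overlap of the groups. The last (227404_s_at) read 7.99, 7.05 and 7.85 after ATAD2 siRNA, against 8.62, 8.52 and 8.77 in controls. Its change was -1.0 ± 0.25 or 2.0-fold (adjusted p = 0.0149). The probe sets had the same order of arrays within the treated group, with replicate 2 the lowest in each.

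The Hep3B ATAD2 siRNA arrays spread more widely for EGR1 than the model assumes, since the SD of 0.98 for 201694_s_at compares with a pooled SD between arrays of 0.36. Without replicate 2 the changes were -0.91 for 201694_s_at (adjusted p = 2.47e-06), -1.30 for 201693_s_at (3.78e-06) and -0.71 for 227404_s_at, which no longer passed (0.0839). For 201694_s_at and 201693_s_at the change was smaller and the adjusted p lower, since the wide spread left with the array. Lower adjusted p values without this array, here and below, rest on fewer treated arrays and are not stronger evidence. With each line fitted by itself the adjusted p for 201694_s_at was 0.0562.

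In SNU449, EGR1 barely moved. The probe set 201694_s_at read 9.37, 9.34 and 9.33 after ATAD2 siRNA, against 9.36, 9.41 and 9.34 in controls, with the groups overlapping and a change of -0.02 ± 0.29. The other EGR1 probe sets changed by 0.05 and 0.13 and did not pass.

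In PLC the 3 EGR1 probe sets did not move together. For 201694_s_at the ATAD2 siRNA arrays read 9.30, 9.12 and 9.21, against 9.05, 8.99 and 9.07 in controls, a change of 0.17 that did not pass (adjusted p = 0.802) although all treated arrays lay above. For 201693_s_at they read 6.58, 6.79 and 6.40, against 6.55, 6.62 and 6.63, a change of -0.01. For 227404_s_at they read 8.26, 7.11 and 8.17, against 7.23, 7.31 and 7.17, a change of 0.61 ± 0.25 (adjusted p = 0.180). The high arrays for 227404_s_at were replicates 1 and 3, the arrays of low 5′ signal, and replicate 2 lay below all 3 controls. Without replicate 2 the change was 0.98 (adjusted p = 0.00312), and with the 5′ minus 3′ signal as a covariate it was -0.05. The part of RNA quality in this probe set was not tested further. The plots of single arrays show the contrast between Hep3B and the other lines.

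**Figure D1:**
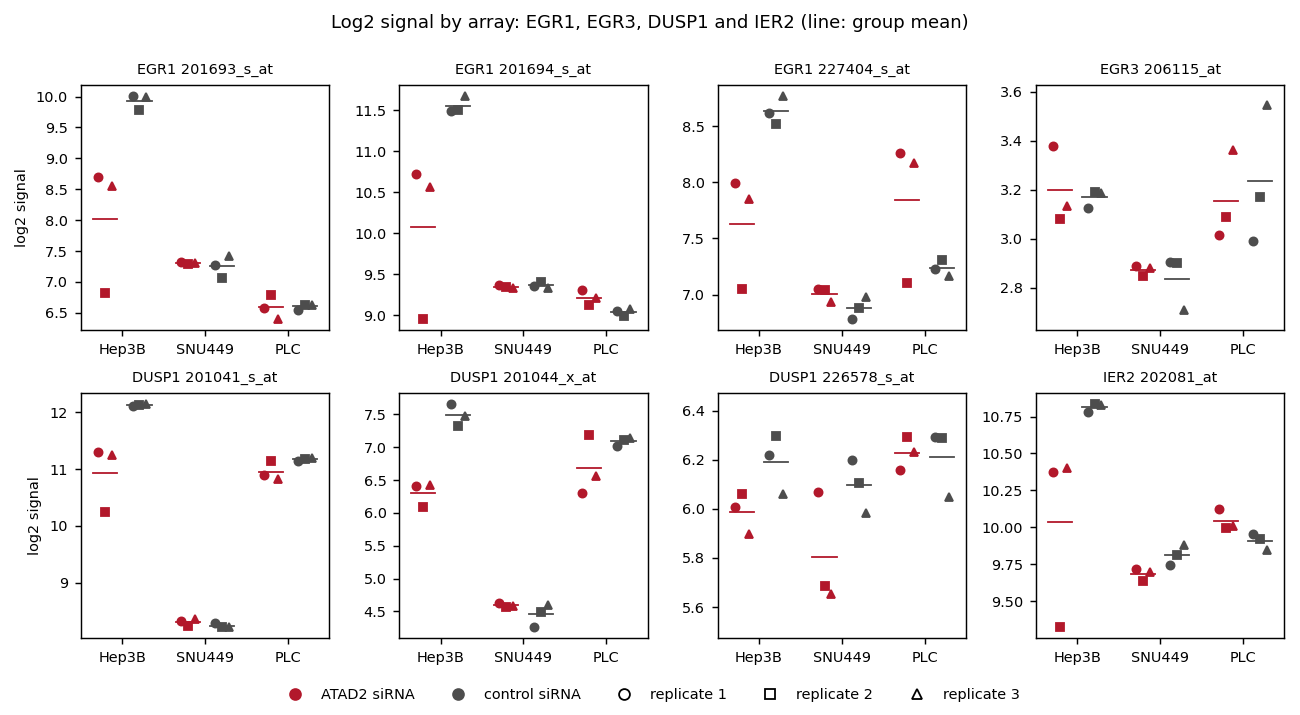
Log2 signal of the 8 probe sets for EGR1, EGR3, DUSP1 and IER2 on each of the 18 arrays, with ATAD2 siRNA arrays in red left of control siRNA arrays in grey for each line, symbols for replicates and a line at each group mean. In Hep3B the red points lie below the grey ones for the 3 EGR1, 3 DUSP1 and 1 IER2 probe sets, and the square for replicate 2 is the lowest for EGR1 and IER2.

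EGR3, a paralogue of EGR1 that is induced by the same signals, was near the bottom of the scale on every array. Its probe set read 2.71 to 3.55 over the 18 arrays, and 9.57% of probe sets had a lower mean. Changes were 0.03 in Hep3B, 0.03 in SNU449 and -0.08 in PLC. At such a signal a change of the RNA may not be visible on the array, and no detection calls were used here.

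IER2 read 10.37, 9.33 and 10.40 on the Hep3B ATAD2 siRNA arrays, against 10.78, 10.84 and 10.83 on the controls. All treated arrays were below all controls, with replicate 2 again the lowest. The means were 10.03 ± 0.61 after ATAD2 siRNA and 10.82 ± 0.03 in controls (SD, n = 3 each), a change of -0.78 ± 0.19 or 1.72-fold (adjusted p = 0.0123). Without replicate 2 the change was -0.43 (adjusted p = 0.000584), and with each line fitted by itself the adjusted p was 0.102.

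In SNU449, IER2 read 9.72, 9.63 and 9.70 after ATAD2 siRNA, against 9.74, 9.81 and 9.88 in controls, and in PLC 10.12, 9.99 and 10.01, against 9.95, 9.92 and 9.85. The treated arrays all lay below the controls in SNU449 (-0.13) and above them in PLC (0.14, adjusted p = 0.750), and neither change passed.

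DUSP1 encodes MKP-1, a nuclear phosphatase that inactivates JNK, p38 and ERK and is itself an immediate-early gene. Its brightest probe set (201041_s_at) read 11.31, 10.24 and 11.25 on the Hep3B ATAD2 siRNA arrays, against 12.11, 12.12 and 12.15 on the controls. The controls had an SD of 0.02, and the treated arrays were all lower, with replicate 2 the lowest. The change was -1.19 ± 0.19 or 2.29-fold (adjusted p = 0.000465), and -0.85 without replicate 2 (7.72e-06).

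The probe set 201044_x_at, whose suffix marks probes that can also match other transcripts, read 6.42, 6.08 and 6.42 after ATAD2 siRNA in Hep3B, against 7.66, 7.32 and 7.48 in controls. Here replicate 2 stood close to its fellows. The change was -1.18 ± 0.17 or 2.27-fold (adjusted p = 0.000165), and -1.07 without replicate 2 (0.00138). Of the 6 probe sets that fell, it depended least on that array.

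The remaining DUSP1 probe set (226578_s_at) gave another picture. It read 6.01, 6.06 and 5.90 in Hep3B ATAD2 siRNA cells, against 6.22, 6.30 and 6.06 in controls, a change of -0.20 that did not pass (adjusted p = 0.326). Its control level hardly differed between SNU449 and Hep3B (-0.10), whereas the other DUSP1 probe sets differed by -3.88 and -3.03. Against PLC its level depended on the scaling. With arrays centred on their medians it was 0.50 for PLC minus Hep3B and -0.61 for SNU449 minus PLC. The 3 probe sets thus disagreed on the level as well as on the change.

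Outside Hep3B, DUSP1 did not pass. In PLC 201041_s_at read 10.89, 11.13 and 10.82 after ATAD2 siRNA, against 11.14, 11.18 and 11.19 in controls, all treated arrays below all controls, with a change of -0.22 (adjusted p = 0.561). In PLC 201044_x_at read 6.31, 7.18 and 6.56, against 7.01, 7.11 and 7.14, a change of -0.41 (0.183). The low arrays were replicates 1 and 3, those of low 5′ signal, and without replicate 2 the change was -0.65 (0.00290). In SNU449 the changes of the 3 probe sets were 0.06, 0.14 and -0.29.

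DUSP4, DUSP5 and DUSP6 belong to the same phosphatase family. DUSP4 and DUSP5 are nuclear, with DUSP5 acting on ERK, and DUSP6 is the cytoplasmic phosphatase of ERK whose RNA is often read as a measure of ERK output. None of their 7 probe sets passed in any line.

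DUSP6 read 7.78, 7.13 and 7.87 on the Hep3B ATAD2 siRNA arrays by its brightest probe set (208891_at), against 7.94, 7.81 and 7.85 on the controls. Replicate 2 was low and the other treated arrays lay among or close to the controls, so that the groups overlapped. The change was -0.27 ± 0.14 (adjusted p = 0.302), and -0.04 without replicate 2. The other DUSP6 probe sets changed by -0.08 and -0.16 in Hep3B.

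In SNU449 208891_at read 9.12, 9.09 and 9.02 after ATAD2 siRNA, against 9.24, 9.13 and 9.23 in controls (-0.13), and in PLC 9.43, 9.17 and 9.47, against 9.34, 9.30 and 9.21 (0.07). The treated arrays lay wholly below the controls in SNU449 and overlapped with them in PLC. Over all 3 DUSP6 probe sets and 3 lines the changes lay between -0.27 and 0.08.

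DUSP5 read 9.61, 8.68 and 9.69 on the Hep3B ATAD2 siRNA arrays, against 9.56, 9.68 and 9.51 on the controls. Only replicate 2 was low, and the change of -0.26 ± 0.19 (adjusted p = 0.564) was 0.07 without it. In PLC it read 9.09, 9.60 and 9.17, against 9.51, 9.52 and 9.59, a change of -0.25 (0.520) in which replicates 1 and 3 were low. In SNU449 it read 5.54, 5.42 and 5.37, against 5.28, 5.20 and 5.27, with all treated arrays above the controls and a change of 0.19 that did not pass.

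DUSP4 moved little in Hep3B and SNU449. Its brightest probe set (204015_s_at) read 9.37, 9.26 and 9.27 on the Hep3B ATAD2 siRNA arrays, against 9.28, 9.31 and 9.16 on the controls, a change of 0.05 ± 0.08. Over the 3 probe sets the changes were 0.03 to 0.05 in Hep3B, and -0.12 to 0.05 in SNU449. In PLC 204014_at read 9.48, 9.18 and 9.39 after ATAD2 siRNA, against 8.96, 8.96 and 9.15 in controls, without overlap. Its change was 0.33 ± 0.10 (adjusted p = 0.0771), and the other DUSP4 probe sets changed by 0.04 and 0.11 in this line. The call depended on the setting: without PLC ATAD2 siRNA replicate 2 the change was 0.41 (adjusted p = 0.0134).

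SPRY2 and SPRY4 encode Sprouty proteins, inhibitors of receptor tyrosine kinase signalling to ERK. SPRY2 read 10.65, 10.33 and 10.66 on the Hep3B ATAD2 siRNA arrays, against 10.43, 10.35 and 10.48 on the controls, with overlap and a change of 0.12 ± 0.08 (adjusted p = 0.453). Replicate 2 was the lowest of the 6 arrays, and without it the change was 0.23 and passed (0.0282), in the direction opposite to EGR1. In SNU449 it read 8.30, 8.35 and 8.29, against 8.12, 8.18 and 8.22, and in PLC 8.36, 8.39 and 8.36, against 8.26, 8.18 and 8.17. All treated arrays lay above all controls in both lines, with changes of 0.14 (adjusted p = 0.790) and 0.17 (0.244).

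SPRY4 read 7.35, 7.36 and 7.33 on the Hep3B ATAD2 siRNA arrays, against 7.47, 7.48 and 7.64 on the controls. The treated arrays were all lower and close together, with a change of -0.19 ± 0.08 (adjusted p = 0.221). It changed by -0.09 in SNU449 and 0.06 in PLC, and did not pass in any line. The panels for the feedback genes show these small shifts beside the large differences in level between lines.

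**Figure D2:**
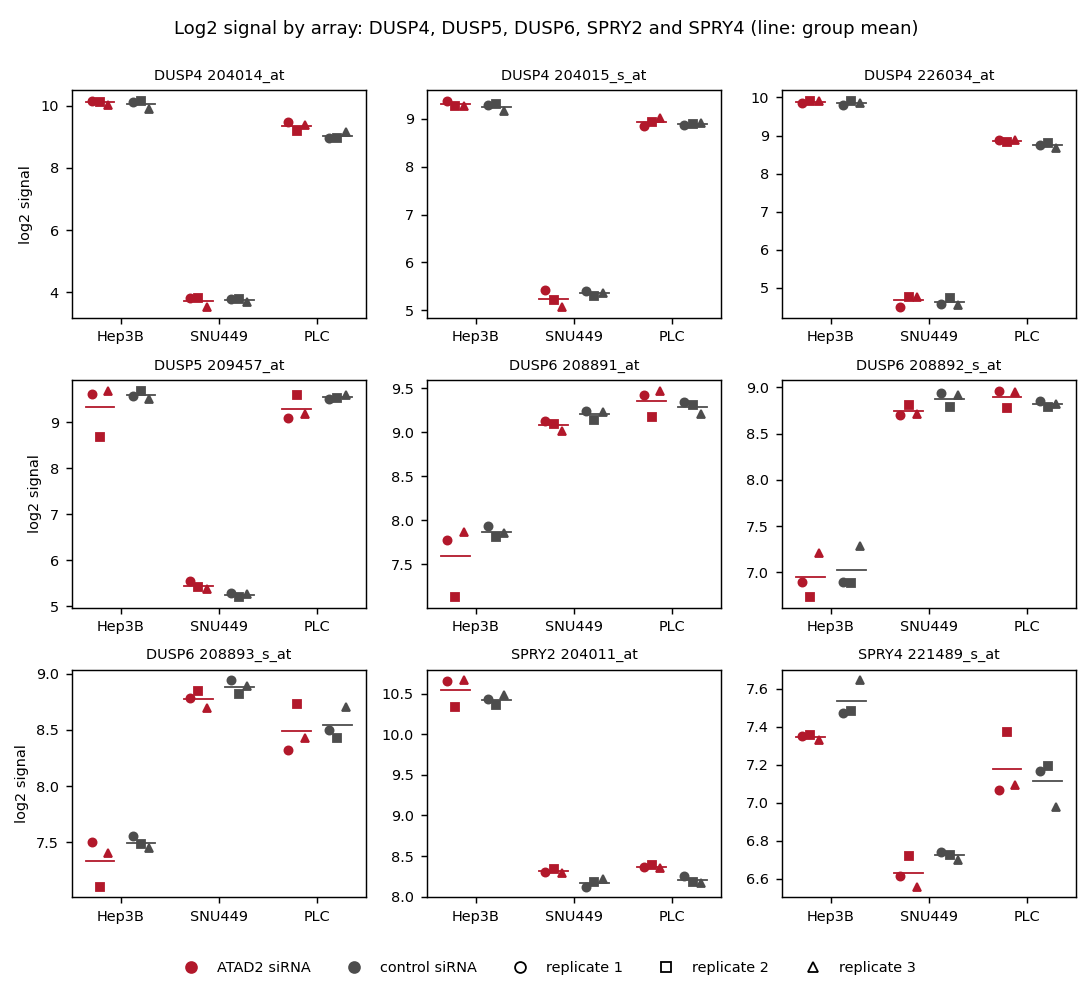
Log2 signal of the 9 probe sets for DUSP4, DUSP5, DUSP6, SPRY2 and SPRY4 on each array, drawn as for EGR1 with ATAD2 siRNA arrays in red left of control siRNA arrays in grey. Red and grey points lie close together within a line, apart from the low square of Hep3B ATAD2 siRNA replicate 2 for DUSP5 and DUSP6, and the levels of DUSP4 and DUSP5 are far lower in SNU449.

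The groups did not overlap with treated arrays lower for 8 of the 17 probe sets in Hep3B, 2 in SNU449 and 1 in PLC, compared with 13.4%, 10% and 8.42% of all probe sets. With treated arrays higher they numbered 0, 2 and 5, compared with 13.3%, 9.59% and 8.25%. Of the 8 in Hep3B, 6 passed the test, and the other 2 were DUSP1 226578_s_at and SPRY4.

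**Figure D3:**
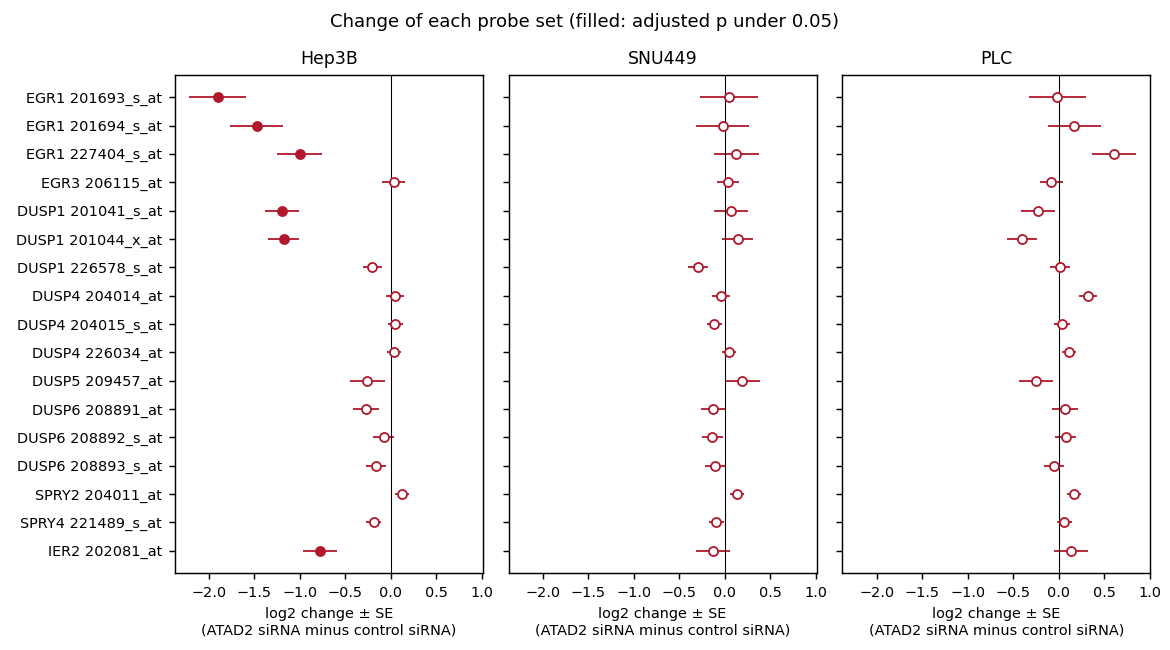
Log2 change (ATAD2 siRNA minus control siRNA) with its SE for the 17 probe sets in each line, filled where the adjusted p was below 0.05. The 6 filled points are all in Hep3B, from -1.91 to -0.78, and the open points of the other lines lie between -0.41 and 0.61.

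The change itself was then compared between lines by an F test over the interaction terms. It passed for 5 of the 17 probe sets, where 4.67% of all passed. These were the 3 for EGR1 (adjusted p = 0.0230 for 201693_s_at, 0.0433 for 201694_s_at and 0.0291 for 227404_s_at) and 2 for DUSP1 (0.0227 for 201041_s_at and 0.00937 for 201044_x_at). IER2 did not pass (0.106), so that its fall in Hep3B was not shown to differ from its change in the other lines. Without Hep3B ATAD2 siRNA replicate 2 its F test passed (0.00480), with the limit given above for fits without that array.

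By pairs of lines, the change in PLC was higher than that in Hep3B for 4 probe sets, where 5.25% of all differed in either direction. The differences were 1.89 ± 0.45, 1.65 ± 0.41 and 1.61 ± 0.35 for EGR1 (adjusted p = 0.0228, 0.0289 and 0.0139) and 0.97 ± 0.27 for DUSP1 201041_s_at (0.0450). The change in SNU449 was higher than that in Hep3B for 3, where 2.70% of all differed. These were EGR1 201693_s_at by 1.95 ± 0.45 (0.0258) and the DUSP1 probe sets by 1.26 ± 0.27 and 1.32 ± 0.23 (0.0149 and 0.00428). Between PLC and SNU449 0 of the 17 differed, with 0.114% of all. The pairs share the Hep3B arrays and are not separate evidence.

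Few of these differences between lines held in every setting. Only the F test of DUSP1 201044_x_at passed in all 29 alternatives run for it, with adjusted p up to 0.0378. The F test of EGR1 201693_s_at and DUSP1 201041_s_at was lost without any one of the Hep3B control arrays, and that of 201693_s_at also with the 5′ minus 3′ covariate, with adjusted p up to 0.0646 and 0.0611. That of EGR1 201694_s_at was lost in 18 of 31 alternatives, up to 0.112, and that of 227404_s_at in 6 of 29, up to 0.0823, including without Hep3B ATAD2 siRNA replicate 2 (0.0585).

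Averaged over the 3 lines, 2 of the 17 probe sets were lower and 0 higher, where 6.61% of all passed in either direction. Both were for DUSP1, at -0.45 (adjusted p = 0.0189) for 201041_s_at and -0.48 (0.00557) for 201044_x_at. Without Hep3B ATAD2 siRNA replicate 2 the number lower was 5. By line, in the order Hep3B, SNU449 and PLC, 201041_s_at changed by -1.19, 0.06 and -0.22. In the same order 201044_x_at changed by -1.18, 0.14 and -0.41, so these means do not stand for a fall in each line.

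The control arrays show how these genes stood under control siRNA. A difference was called here at an adjusted p below 0.05 and at least 1 log2 unit. SNU449 was lower than Hep3B for 11 of the 17 probe sets and higher for 3, where 8.37% and 8.77% of all probe sets were. The deposited medians of the lines ranged between 4.14 and 5.62, and the direction of these SNU449 to Hep3B differences was the same for each called probe set with the values as deposited, with normalization within lines and with arrays centred on their medians.

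The differences farthest from 0 were those of DUSP4, DUSP5 and DUSP1, leaving aside DUSP1 226578_s_at. For DUSP4, the brightest probe set read 5.40, 5.30 and 5.37 on SNU449 control arrays, against 9.28, 9.31 and 9.16 on Hep3B control arrays, a difference of -3.89 (adjusted p = 1.31e-16), and its other probe sets differed by -6.32 and -5.24. DUSP5 read 5.28, 5.20 and 5.27 on SNU449 controls, against 9.56, 9.68 and 9.51 on Hep3B controls (-4.33, 2.65e-12). DUSP1 201041_s_at read 8.29, 8.22 and 8.23, against 12.11, 12.12 and 12.15 (-3.88, 9.41e-12). The lines were far apart for these 3 phosphatases.

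EGR1 201694_s_at was lower in SNU449, with a difference of -2.19 (adjusted p = 4.72e-06), as were SPRY2 (-2.25, 9.65e-14) and IER2 (-1.0, 0.000177). DUSP6 ran the other way, with 9.24, 9.13 and 9.23 on SNU449 controls, against 7.94, 7.81 and 7.85 on Hep3B controls, a difference of 1.34 (2.45e-07), and 1.85 and 1.39 by its other probe sets. The groups of control arrays did not overlap for DUSP6 or for EGR1, which differed in opposite directions.

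PLC controls were set against Hep3B controls with less certainty, since the scaling moved the median difference of all probe sets between -0.71 with the values as deposited and 0.54 with arrays centred on their medians. As normalized here, PLC was lower for 6 of the 17 and higher for 3, where 7.58% and 8.28% of all were. EGR1 201694_s_at read 9.05, 8.99 and 9.07 on PLC controls, against 11.49, 11.50 and 11.68 on Hep3B controls, a difference of -2.52 (adjusted p = 9.27e-07) that was -1.23 with centred arrays. SPRY2 was lower (-2.22, and -0.99 with centred arrays), and the 3 DUSP6 probe sets were higher by 1.42, 1.80 and 1.05, and by more with centred arrays. For DUSP4 204014_at and 226034_at the differences of -1.04 and -1.11 became 0.29 and 0.19 with centred arrays, so no order is given. EGR1 201693_s_at was lower in PLC in each scaling (-3.32, and -2.44 with centred arrays), while for 227404_s_at the difference of -1.40 became -0.37 with centred arrays and did not pass.

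SNU449 controls were lower than PLC controls for 6 of the 17 and higher for 0, where 8.80% and 8.53% of all were. With centred arrays 15 of the 17 were lower, but the median difference of all probe sets was then -0.58, compared with 0.01 as normalized here. No share of all probe sets was taken with centred arrays, so the 15 cannot be read as particular to these genes. The 6 called as normalized here included the 3 DUSP4 probe sets, with differences of -5.27, -3.53 and -4.12. The others were DUSP5 (-4.29), and DUSP1 201041_s_at and 201044_x_at (-2.92 and -2.63). All 6 were lower in each of the scalings tried. For EGR1 201694_s_at the difference was 0.33 (adjusted p = 0.334), and for DUSP6 208891_at and SPRY2 it was -0.08 and -0.03, all smaller than the pooled SD between arrays. With centred arrays these 3 were -1.11, -1.54 and -1.30, so no order is given.

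Other genes of the pathway were read by 1 probe set each, the brightest. In Hep3B, 17 measured genes known to be induced by ERK, other than the 9 above, had 7 lower and 1 higher, with a median change of -0.45. Of all probe sets in this line 3.79% were lower and 5.08% higher, with a median of -0.01. Without Hep3B ATAD2 siRNA replicate 2 the list had 6 lower and 1 higher and a median of -0.22. The call that was lost was that of FOSB, an AP-1 gene named here after its values were seen (-0.72 with the array, and -0.48 with an adjusted p of 0.151 without it). Of the 17, 0 passed in SNU449 and 1 in PLC (MYC, -0.37, adjusted p = 0.0366), with medians of -0.02 in both.

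FOS, the partner of JUN in the AP-1 factor, read 7.58, 4.34 and 7.22 on the Hep3B ATAD2 siRNA arrays, against 8.37, 7.59 and 8.68 on the controls. Its change of -1.83 (adjusted p = 0.0460) was -0.82 (0.0395) without replicate 2. ATF3, a stress-induced factor, read 7.35, 6.27 and 7.30, against 8.23, 8.26 and 8.39, a change of -1.32 (0.000207), and -0.97 (2.66e-06) without replicate 2. Replicate 2 was the lowest for both.

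JUNB, an AP-1 subunit, read 8.0, 7.04 and 7.87 on the Hep3B ATAD2 siRNA arrays, against 8.67, 8.58 and 8.81 on the controls (-1.05, adjusted p = 0.0005, and -0.75 without replicate 2, 3.69e-05). EREG, which encodes the EGF receptor ligand epiregulin, moved up, with 10.83, 10.83 and 10.93, against 9.85, 9.96 and 9.95 (0.95, 2.1e-06). EREG differed in direction from the 7 genes of its list that were lower.

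The ERK cascade itself, from receptor to kinases, was read in the same way. Of its 13 measured genes, 4 were higher and 1 lower in Hep3B, where 5.08% and 3.79% of all probe sets were, and 0 passed elsewhere. These were the adaptor and exchange factor genes GRB2 (0.55, adjusted p = 8.11e-05) and SOS2 (0.61, 5.48e-05), the kinase genes RPS6KA3 (0.46, 0.000209) and MAP2K2 (0.31, 0.00831), and the receptor gene EGFR (-0.27, 0.00545), whose call was lost with centred arrays (-0.15, 0.168). Medians were 0.12 in Hep3B, 0.05 in SNU449 and 0.02 in PLC.

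Of 9 measured further negative regulators, 2 were higher in Hep3B, where 5.08% of all probe sets were. SPRY1, a further Sprouty gene, read 7.88, 8.32 and 8.0 after ATAD2 siRNA, against 7.19, 7.06 and 7.26 in controls, a change of 0.90 (adjusted p = 6.72e-06), and ERRFI1, an inhibitor of the EGF receptor, changed by 0.41 (0.000105). SPRY1 therefore rose in the line in which SPRY2 and SPRY4 did not pass. In PLC ERRFI1 was higher by 0.21 (0.0495) and PEBP1, an inhibitor of RAF, was lower (-0.37, 0.0251). Of all probe sets in PLC, 1.55% were higher and 1.78% lower.

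Of 6 further MAP kinase phosphatases, DUSP2 (0.31, adjusted p = 0.0427) and DUSP16 (0.31, 0.0133) were higher in Hep3B and DUSP9 was lower in PLC (-0.62, 0.00224). Without Hep3B ATAD2 siRNA replicate 2 DUSP16 no longer passed (0.23, 0.0618), and with each line fitted by itself DUSP9 did not (adjusted p = 0.231). Among 13 SRF and ETS factor genes only ELK4, an SRF partner, passed, in Hep3B (-0.39, 0.00151). Without Hep3B ATAD2 siRNA replicate 2 ELK3 passed as well, as higher. Among 3 EGR partner genes the corepressor gene NAB1 was higher in Hep3B (0.33, 0.0122). Of all probe sets, 5.08% were higher and 3.79% lower in Hep3B, and 1.55% and 1.78% in PLC. In SNU449 0 genes of these lists passed, where 0.0201% of all probe sets were higher and 0.0238% lower. Several of these calls were lost under other settings: that of ERRFI1 in PLC in 25 of 32, MYC in 17, FOS in 16, PEBP1 in 10, DUSP16 in 6, FOSB in 5, EGFR in 3, NAB1 in 2, and DUSP9, MAP2K2 and ELK4 in 1 each, and that of DUSP2 in 12 of 31.

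**Figure D4:**
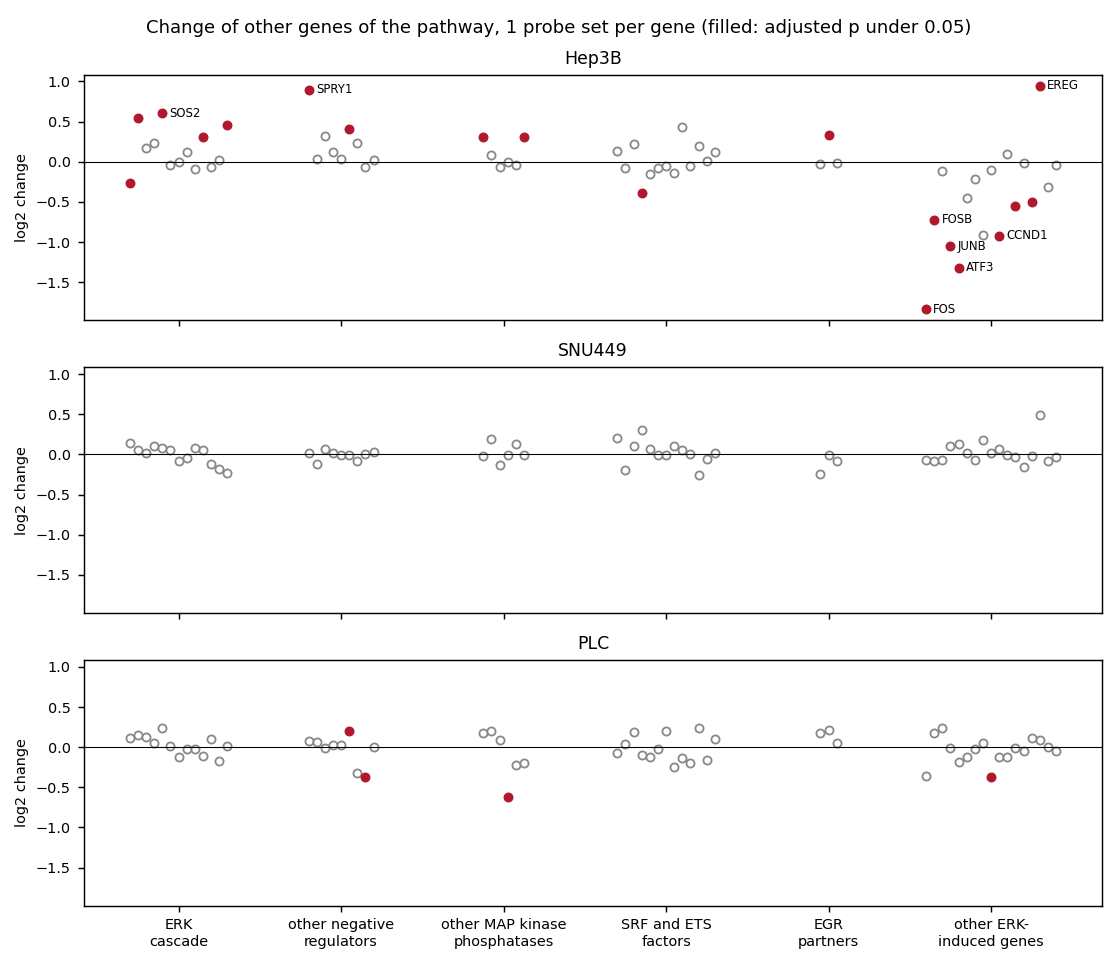
Log2 change (ATAD2 siRNA minus control siRNA) of each gene of the 6 further lists in each line, 1 probe set per gene, filled where the adjusted p was below 0.05. In Hep3B the ERK-induced genes lie mostly below 0 with FOS at -1.83 and EREG at 0.95, and in SNU449 no point is filled.

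Likeness to EGR1 was described by the correlation of each gene with EGR1 201694_s_at over the 18 arrays, after the mean of each line was taken off. The mean of each siRNA group was not taken off, so genes that shifted with EGR1 after ATAD2 siRNA have a high r by construction. Among the members, r was 0.98 for IER2 and 0.94 for DUSP1, 0.83 for DUSP6 and 0.65 for DUSP5. It was 0.40 or less for SPRY4, SPRY2, EGR3 and DUSP4. Spearman's rho was 0.82 for IER2, 0.41 for DUSP1, 0.48 for DUSP6 and -0.09 for DUSP5, and 0.49 or less for the other members. The 5 other genes most like EGR1 were JUNB, CKS1B, NR4A2, RHOB and PIM1, with r of 0.95 to 0.97 and Spearman's rho of 0.47 to 0.83. For DUSP6 they were RPA3, KLF2, MAD2L1, SRSF3 and NUF2, with r of 0.91 to 0.93. All these values share the same 18 arrays, and much of them rested on Hep3B ATAD2 siRNA replicate 2. Without that array, r with EGR1 was 0.89 for IER2, 0.80 for DUSP1, 0.22 for DUSP6, -0.34 for DUSP5 and -0.50 for SPRY2, and 0.81 to 0.93 for the 5 other genes. For the genes most like DUSP6 it was then 0.54 to 0.68. The panel of EGR1 by array shows how that array compares with the others in 5′ signal.

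**Figure D5:**
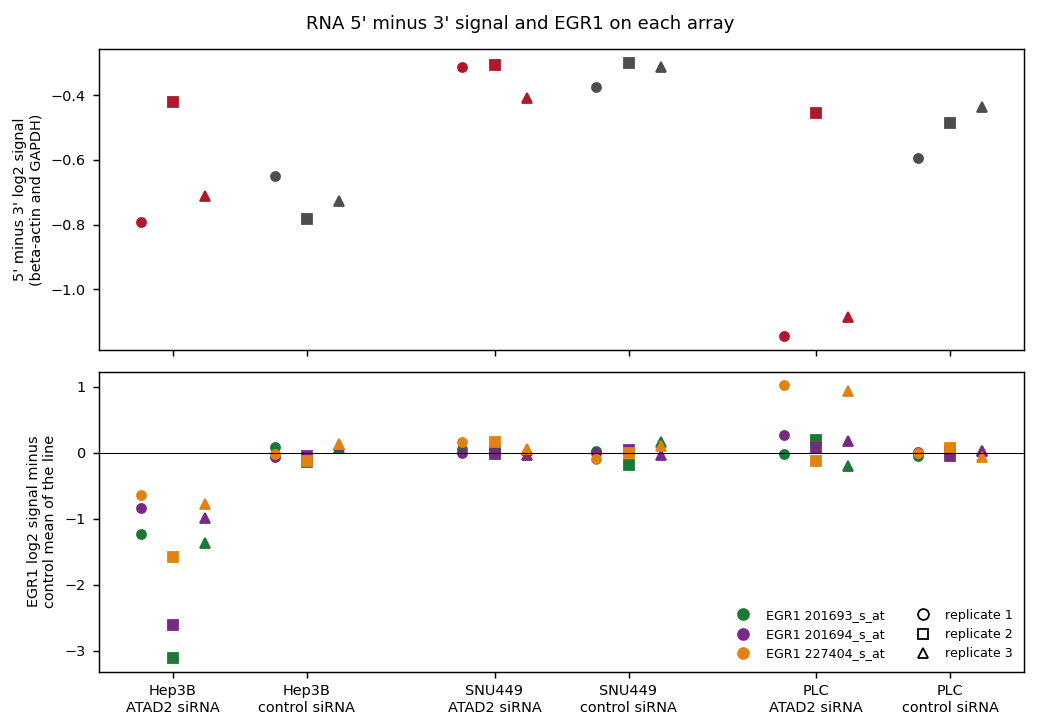
Upper panel, the 5′ minus 3′ log2 signal of β-actin and GAPDH on each array, and lower panel, the log2 signal of the 3 EGR1 probe sets minus the control mean of the line, with symbols for replicates. Hep3B ATAD2 siRNA replicate 2, at -0.42 in the upper panel, is the lowest array for EGR1, and PLC ATAD2 siRNA replicates 1 and 3, at -1.15 and -1.09, are high for 227404_s_at.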

How the data were processed

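Total RNA of 18 cultures was labelled with biotin and hybridised to arrays, per the labels' protocols. The authors deposited 1 table of log2 values (1.33 to 14.0); no label states how signals were corrected for background or scaled, and the submitters' processing notes name limma. Sorted columns differed by up to 0.16 within a line and 1.51 between lines. All columns were quantile normalized together, and 6 group means were fitted with limma 3.58.1 in R 4.3.3 to 54613 probe sets, leaving out array controls, with Benjamini-Hochberg adjustment over all and a threshold of 0.05 (12 residual and 4.01 prior degrees of freedom). The code was tested on simulated data.

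The members and gene lists were chosen with earlier results of these data known. All 17 probe sets are named; the brightest stands for a gene elsewhere, and per list and line up to 4 passing genes were named, with 5 genes per likeness list. The annotation gave 1 gene to 41097 probe sets, several to 1801 and none to 11777, and 41043 symbols were updated by gene identifier (RefSeq, GRCh38.p14); RefSeq promoters were found for 7 of the 10 genes. A fold understates changes near background, and the number of arrays limits precision. The labels do not say whether a replicate number pairs samples. Of 9 same-numbered pairs, 0 had deviations correlated above 0.1 (r of -0.10 to 0.07), which cannot exclude a weak pairing. Correlation of arrays within a group was 0.987 to 0.998.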

Additional observations from a re-analysis of the deposited data

Results flagged for a closer look

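The change after ATAD2 siRNA differed between the 3 lines, by limma's F test over the interaction terms, for 5 of the 17 probe sets. The adjusted p was 0.0230 for EGR1 201693_s_at, whose change was -1.91 in Hep3B, 0.05 in SNU449 and -0.01 in PLC. It was 0.0433 for EGR1 201694_s_at, with changes of -1.48, -0.02 and 0.17 in the same order of lines. It was 0.0291 for EGR1 227404_s_at, with -1.0, 0.13 and 0.61. It was 0.0227 for DUSP1 201041_s_at, with -1.19, 0.06 and -0.22, and 0.00937 for DUSP1 201044_x_at, with -1.18, 0.14 and -0.41.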

How the results depend on the processing

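Over 32 other settings, the 51 changes of the members (17 probe sets in 3 lines) gave 1578 values, of which 1567 kept their side of the threshold, 4 lost a call and 7 gained one. None reversed, and 55 changed sign without a call in either. Fitting 1 probe set per gene, the brightest or the mean, leaves fewer features by construction. It gave 3 lower in Hep3B, 2 by the F test, 1 lower in the mean over lines, 1 higher and 6 lower for SNU449 minus Hep3B, 1 higher and 2 lower for PLC minus Hep3B, and 3 lower for SNU449 minus PLC.

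Leaving out 1 array at a time gave 5 to 6 lower and 0 to 1 higher in Hep3B, 0 to 1 lower and 0 to 2 higher in PLC, 1 to 6 by the F test and 2 to 5 lower in the mean over lines. The F test gave 1 without any one of the Hep3B controls and 3 without PLC control replicate 3. The mean gave 4 and 5 without Hep3B ATAD2 siRNA replicates 1 and 2, and the PLC extremes came without PLC ATAD2 siRNA replicate 2. Settings chosen after seeing the data left out all 3 ATAD2 siRNA arrays that stand apart in 5′ signal (1 higher in Hep3B, 6 lower in the mean) or only the 2 of PLC (1 lower in the mean). The likeness values without Hep3B ATAD2 siRNA replicate 2 were also added after seeing the data. The 5′ minus 3′ covariate gave 3 by the F test and 5 lower in the mean, and removing the dimmest 50% of probe sets or fitting an intensity trend each gave 1 higher in PLC. The fit with a replicate block, although the labels do not say that the numbers pair samples, gave 3 by the F test and 6 lower in Hep3B. The cause of these moves was not tested.

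Scaling moved comparisons with PLC controls. With centred arrays 2 of the 17 were lower for PLC minus Hep3B and 15 for SNU449 minus PLC. The median difference of all probe sets was then 0.54 and -0.58 in the same order. The values as deposited and within-line normalization each gave 1 higher for SNU449 minus PLC. For PLC minus Hep3B with centred arrays, signs turned, with a call in at least 1 of the settings, for DUSP1 201041_s_at (0.40) and 201044_x_at (0.51), DUSP4 204014_at (0.29), 204015_s_at (0.95) and 226034_at (0.19), DUSP5 (1.34), SPRY4 (0.51) and IER2 (0.48). With the values as deposited or normalized within lines they turned for EGR3 (-0.28 and -0.24) and DUSP1 226578_s_at (-0.74 and -0.76). For SNU449 minus PLC they turned with centred arrays for EGR1 201694_s_at (-1.11) and DUSP6 208892_s_at (-1.34) and 208893_s_at (-1.02), and without a call in either setting for EGR1 201693_s_at (-0.17). With the values as deposited or within lines they turned for DUSP1 226578_s_at (0.85 and 0.85) and SPRY4 (0.20 and 0.23), and within lines for SPRY2 (0.22). The other signs that turned under these scalings had no call in either setting.

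ATAD2 stayed lower throughout, from -4.04 to -3.30 in Hep3B, -2.45 to -2.06 in SNU449 and -3.04 to -2.20 in PLC. Over all probe sets the number higher was 1522 to 4063 in Hep3B (2777 as reported), 3 to 382 in SNU449 (11) and 0 to 3445 in PLC (846), and the number lower was 1174 to 3003 (2069), 6 to 271 (13) and 3 to 4076 (970).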
